A study of Mus musculus with 18 samples.

Results

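Deubiquitinases are the enzymes that cut ubiquitin off proteins or trim ubiquitin chains, and ubiquitin-specific proteases (USPs), which are cysteine proteases, are their largest family. In the TLR4 pathway of macrophages, lysine 63-linked and linear ubiquitin chains hold together the complexes of TRAF6, TAK1 and the IKK kinases, and several USPs are known to remove such chains. The genes were chosen by symbol: protein-coding mouse genes named Usp followed by a digit, without Usp18, which acts on the ubiquitin-like protein ISG15. This gave 55 genes, of which 38 were listed with a value, out of 13598 genes with a value in all. Of these, 36 were tested, because 3 or more of the 18 libraries had them at 1 FPKM or above, a filter that 9707 genes of the whole series passed.

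RNA-seq was performed on total RNA of peritoneal macrophages from mice of the genotypes TLR4-WT, TLR4-K730R and TLR4-K810R. The cells were taken after thioglycolate injection and were either left as controls or treated with LPS at 100 ng/ml for 6 h, with 3 libraries in each of the 6 groups. LPS, the lipopolysaccharide of Gram-negative bacteria, is the ligand of TLR4. In the mutant mice, made with CRISPR/Cas9 on the C57BL/6 background, the lysine that gives each line its name (K730R or K810R), in the intracellular TIR domain of TLR4, is replaced by arginine, in every cell that carries the gene, so that the mutation is not limited to macrophages. The labels do not say that the 3 libraries of a group came from separate mice, so p-values measure the spread between these libraries, which may be technical. The authors deposited FPKM, which are fragments scaled by transcript length and by the mapped fragments of the library, for transcript events such as first exons and last exons. First-exon FPKM and last-exon FPKM were each added up for a gene, the greater sum was taken as its value, and a gene without a row is listed at 0. Differences are on the log2(FPKM + 1) scale, where 1 is a doubling for a highly expressed gene, and where the same fold gives a smaller value for a gene near or below 1 FPKM. They were tested with limma in one fit of all groups, and a gene was called at a Benjamini-Hochberg adjusted p below 0.01 over all genes tested.

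The files held 80071 to 90401 rows per library and no read counts, and sequencing depth is therefore unknown. Correlations between libraries of the same group were 0.961 to 0.975 and those between groups 0.808 to 0.974. Of 8 macrophage markers 7 were listed, Itgam being at 0 in every library, and their summed level was 11633 to 14785 FPKM in control libraries and 7289 to 10057 FPKM after LPS. Most of that sum was Lyz2, at 10375 to 13291 FPKM in controls and 5944 to 8754 FPKM after LPS, whereas Fcgr1 went the other way, from 26.7 to 51.7 FPKM in controls to 160 to 412 FPKM, Adgre1 was at 148 to 253 and 205 to 271 FPKM, and Cd14 was listed in a single library (463 FPKM in TLR4-K810R LPS replicate 3). Markers of mesothelium and fibroblasts (6 of 6 listed) summed to 16.2 to 42.4 FPKM in TLR4-WT and TLR4-K730R controls, to 68.3 to 181 FPKM in TLR4-K810R controls and to 26.4 to 90.6 FPKM in TLR4-WT after LPS. Intestinal epithelium markers (5 of 5 listed) summed to 0.118 to 0.594 FPKM in TLR4-WT controls, 6.04 to 31.0 FPKM in TLR4-K730R controls and 9.54 to 46.9 FPKM in TLR4-K810R controls, so that all 6 mutant controls lay above the 3 TLR4-WT controls. The highest was TLR4-K810R control replicate 3, which also had the highest sum for mesothelium and fibroblasts. Lung epithelium markers (3 of 3 listed) reached 33.7 FPKM in TLR4-K810R after LPS, from Scgb1a1 at 22.0 and 30.9 FPKM in replicates 2 and 3, a gene at 3.94 FPKM or less in the other libraries. Neutrophil markers (5 of 5 listed) summed to 22.9 to 46.7 FPKM in controls and to 172 to 245 FPKM after LPS, nearly all of it S100a8, while Ly6g and Mpo were below 1 FPKM in every library. The part of these cells in the results was not tested, and in bulk RNA fewer cells of a type and less RNA per cell cannot be told apart. Tlr4 itself, the mutated gene, was at 11.7 ± 2.41, 10.4 ± 1.46 and 12.5 ± 1.23 FPKM (SD, n = 3) in TLR4-WT, TLR4-K730R and TLR4-K810R controls and at 5.17 ± 0.497, 4.68 ± 0.373 and 4.73 ± 0.547 FPKM after LPS, a measure that does not read the exchanged codon.

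The summed level of the family was 276 to 316 FPKM in the 9 control libraries and 223 to 259 FPKM in the 9 LPS libraries, so that the ranges did not overlap. This was 0.0793% to 0.0925% of the summed FPKM of all genes in controls and 0.0661% to 0.0740% after LPS. The typical gene was also lower after LPS, as the median difference over all genes tested, averaged over the genotypes, was -0.30. How often the sums of other gene sets separate was not counted. The separation of the sums therefore does not set the family apart from all genes. Of the 36 tested genes, 10 had a mean of at least 10 FPKM over the 18 libraries, 16 a mean from 2 to 10 FPKM and 10 a mean below 2 FPKM.

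The highest was Usp5, which takes apart free ubiquitin chains, with a mean of 36.4 FPKM. Usp4, known to trim lysine 63-linked chains on TRAF proteins and TAK1, followed with 31.4 FPKM, then Usp25, a protease known to act on TRAF3 and TRAF6, with 29.7 FPKM. Next came Usp8, which deubiquitinates receptors sorted at the endosome, with 19.8 FPKM and Usp19, which is anchored in the endoplasmic reticulum, with 15.8 FPKM. Usp7, the protease of MDM2 and p53, Usp39, a splicing factor, Usp22, the deubiquitinase of the SAGA complex, Usp12, which works with the WD repeat protein UAF1, and Usp14, which is bound to the proteasome, had means of 10.2 to 12.4 FPKM. Over the 18 libraries the ranges of neighbours in this order overlapped. The values of Usp5 and Usp4 rest on first exons, as their mean last-exon FPKM was 0 and 0.0139. In 11 of the 36 tested genes the mean first-exon and last-exon sums were within 1.1 times of each other. In controls Usp5 was at 35.3 to 49.1 FPKM and Usp4 at 31.6 to 39.8 FPKM, which overlap, and both lay above the 14.8 to 23.1 FPKM of Usp25. After LPS Usp25 was at 34.1 to 51.0 FPKM, above all values of Usp4, at 22.3 to 31.3 FPKM, and overlapping those of Usp5, at 22.8 to 37.2 FPKM. The order of the leading genes thus differed between control and LPS libraries.

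**Figure D1:**
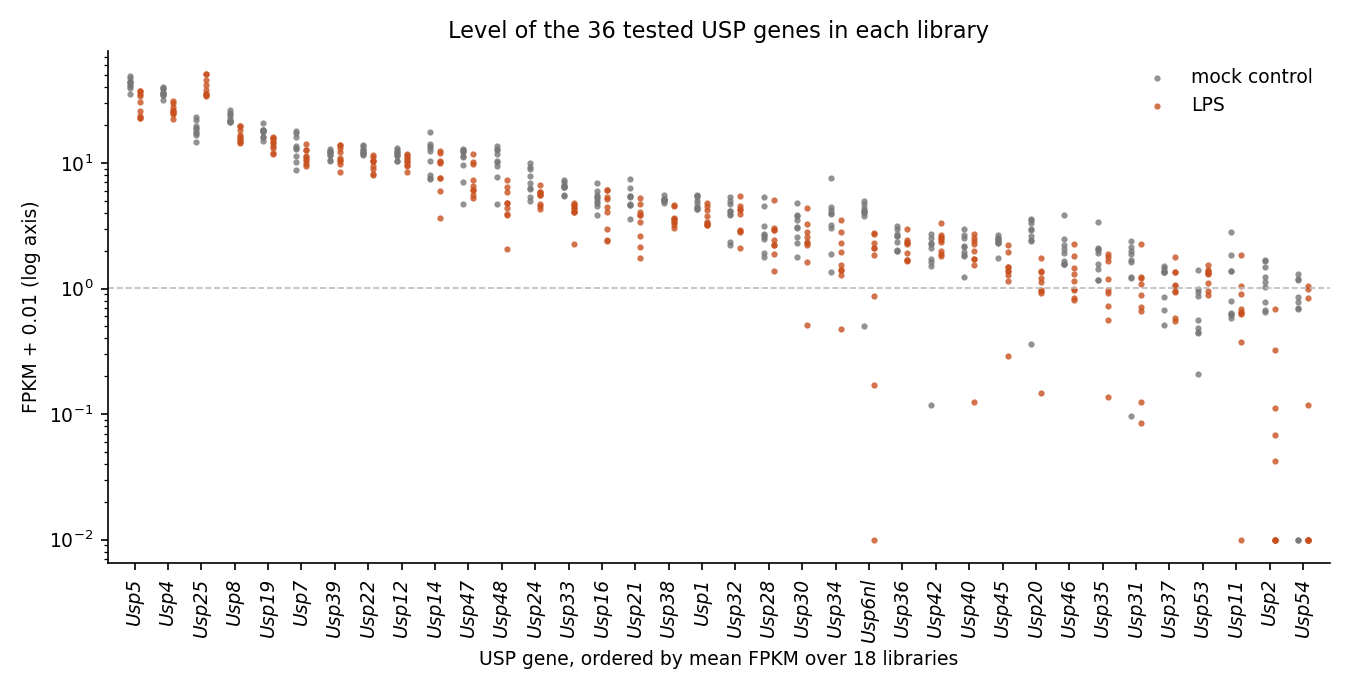
Each point is the value of one USP gene in one library, in FPKM + 0.01 on a log axis, with genes ordered by their mean over the 18 libraries, control libraries in grey and LPS libraries in orange. The dashed line marks 1 FPKM, Usp25 is the gene among the leading ones whose LPS points lie above its control points, and points on the bottom line are listed at 0.

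The 17 USP genes with no row of any event type were Usp3, Usp9x, Usp9y, Usp10, Usp15, Usp17la, Usp17lb, Usp17lc, Usp17ld, Usp17le, Usp26, Usp27x, Usp29, Usp43, Usp44, Usp50 and Usp51. A gene without a row may still be expressed, as the macrophage marker Itgam had none either. Usp13 and Usp49 had values but did not pass the filter. Usp13 was listed above 0 in 4 libraries, at 0.588 to 0.830 FPKM, and Usp49 reached at most 1.33 FPKM, in one TLR4-K730R control. A first exon on the same strand that the files list under Usp49 in all 18 libraries, at a mean of 9.55 FPKM, lies before the annotated gene and was left out, so the failed filter depends on that choice. Among the tested genes, 32 were above 0 in all 18 libraries, and Usp2, Usp6nl, Usp11 and Usp54 were listed at 0 in at least 1 library. Most genes started at one place: in 30 of the 36 the leading first exon held at least 90% of the summed first-exon FPKM. Usp35 was the most divided, with 41.8% in its leading first exon.

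The first comparison asked how the family responds to LPS, averaged over the 3 genotypes so that all 9 LPS and 9 control libraries enter. Usp25 and Usp53 were called higher and 16 other USP genes lower. The median over all genes was also below 0, and the 16 differed from the median of all genes by -0.01 (Usp19) to -0.67 (Usp48). The median difference over the 9707 genes was -0.30, and that over the 36 USP genes was -0.36. At the threshold 2 USP genes were higher, which is 5.56% of those tested, where 13.9% of all genes were higher. Another 16 USP genes were lower, 44.4% of those tested, where the share of all genes was 40.9%. When each library was rescaled by the median of its ratios to the mean library, the median over all genes became -0.03, and 2 USP genes were higher and 2 lower, against 23.1% and 23.6% of all genes. Usp25, Usp53, Usp2 and Usp48 made up these 4. The rescaling turned 10 genes from below to above 0, Usp19 among the called ones and Usp7, Usp12, Usp16, Usp28, Usp32, Usp36, Usp37, Usp39 and Usp40 among the others. Of the 36 genes 32 reached 1 FPKM in 3 or more libraries of both conditions, while Usp2, Usp11 and Usp54 passed the filter through the controls and Usp53 through the LPS libraries, so that the calls of Usp2 and Usp53 lie in the direction that the filter favours. Without adjustment, 22 of the 36 had p below 0.05, or 61.1%, compared with 68.8% of all genes.

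Whether the control and LPS libraries overlapped gave a second view of the same values. For Usp25 all 9 LPS libraries lay above all 9 controls, as was the case for 8.38% of all genes tested. For Usp4, Usp8, Usp22, Usp33 and Usp38 all 9 LPS libraries lay below all 9 controls, which held for 19.8% of all genes. The remaining 30 had overlapping ranges. The share of all genes was counted for 9 libraries against 9 only. Separations of fewer libraries, within a genotype or between genotypes, therefore stand without such a share in the text below.

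**Figure D2:**
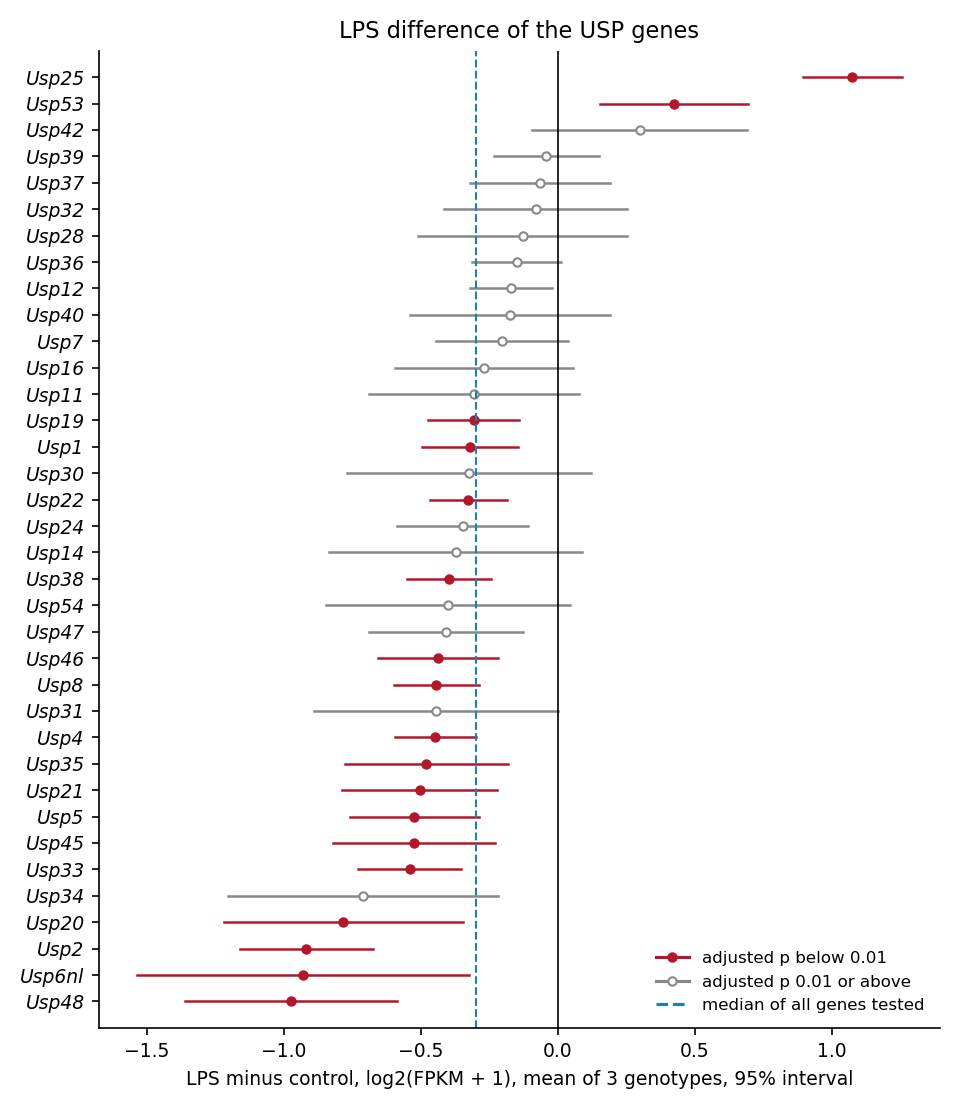
Each row is one USP gene, with the difference of LPS minus control on the log2(FPKM + 1) scale, averaged over the 3 genotypes (9 libraries against 9), and its 95% interval from limma, red and filled where the adjusted p was below 0.01. Usp25 stands apart at 1.07, Usp48, Usp6nl and Usp2 are at the low end from -0.97 to -0.92, and the dashed line shows the median of all 9707 genes at -0.30.

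Usp25 was the USP gene with the clearest response. It is located on the plus strand of chromosome 16 from 77013706 to 77116780 in GRCm38. In TLR4-WT macrophages the 3 control libraries had 19.6, 23.1 and 16.8 FPKM and the 3 LPS libraries 50.7, 51.0 and 37.8 FPKM. In TLR4-K730R the controls had 21.9, 17.4 and 18.9 FPKM and the LPS libraries 41.4, 35.5 and 45.5 FPKM. In TLR4-K810R the values were 14.8, 18.5 and 17.5 FPKM without and 35.0, 35.1 and 34.1 FPKM with LPS. Every LPS library was therefore higher than every control, in each genotype and between them. The averaged difference was 1.07 with a standard error of 0.08 (limma adjusted p = 1.45e-08), or 1.37 above the median of all genes. By genotype it was 1.19 in TLR4-WT (limma adjusted p = 6.82e-06), 1.03 in TLR4-K730R (2.78e-05) and 1.003 in TLR4-K810R (4.71e-05), and this call held under each of the alternatives and in every fit that left out a library.

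**Figure D3:**
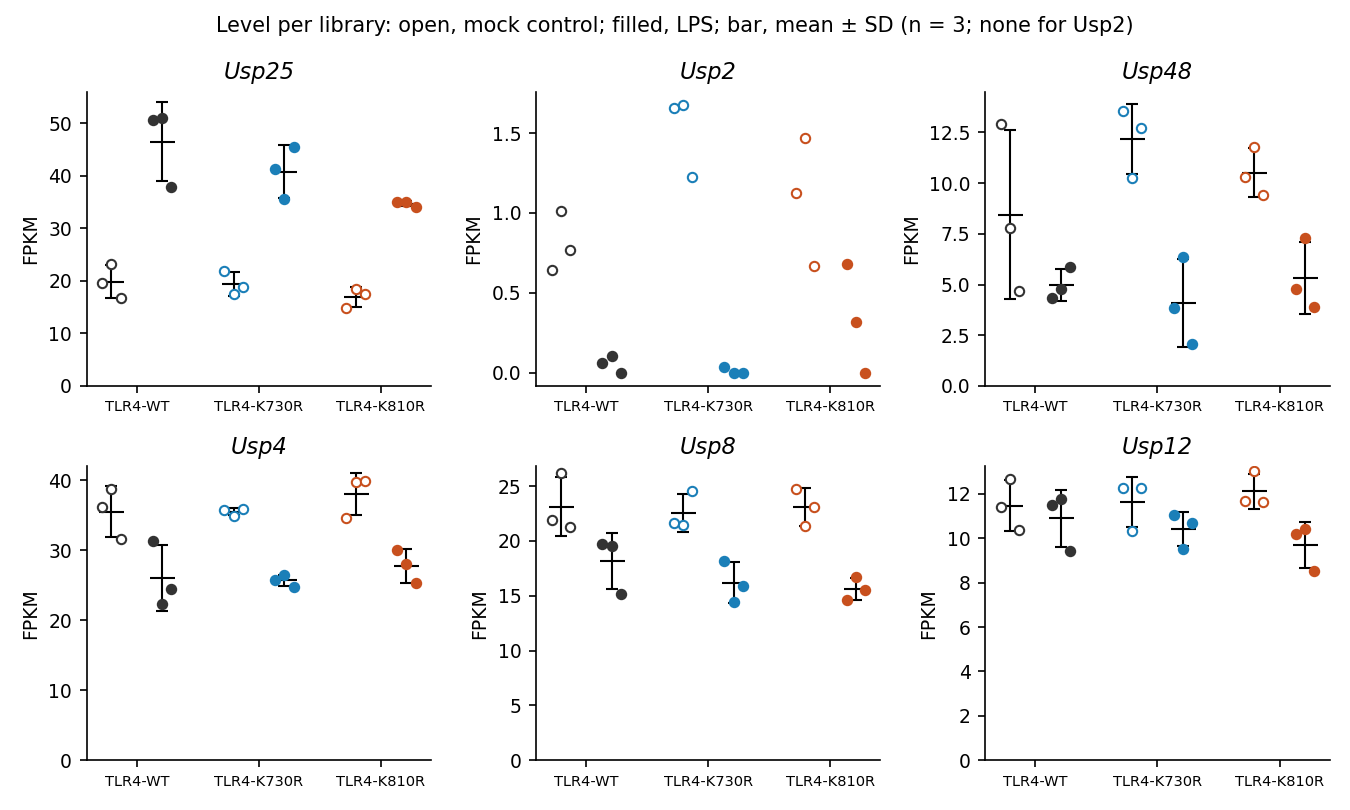
FPKM of 6 USP genes in each library of TLR4-WT (black), TLR4-K730R (blue) and TLR4-K810R (orange) macrophages, open for control and filled for LPS, with the mean and SD of 3 libraries as bars except for Usp2, which is listed at 0 in 4 LPS libraries. Usp25 has all LPS points above its controls, and Usp4 and Usp8 have all LPS points below theirs. The points of Usp12 overlap in TLR4-WT and TLR4-K730R and do not overlap in TLR4-K810R.

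Usp2, a protease with circadian expression that is known to stabilise cyclin D1, lies on chromosome 9 from 44067021 to 44095627 and was a low gene in these cells. Its control values were 0.643, 1.01 and 0.770 FPKM in TLR4-WT, 1.66, 1.67 and 1.23 FPKM in TLR4-K730R, and 1.12, 1.47 and 0.669 FPKM in TLR4-K810R. After LPS it was 0.0579, 0.103 and 0 FPKM in TLR4-WT, 0.0322, 0 and 0 FPKM in TLR4-K730R, and 0.678, 0.316 and 0 FPKM in TLR4-K810R. The groups did not overlap in TLR4-WT and TLR4-K730R and overlapped in TLR4-K810R, where the highest LPS library was just above the lowest control. The averaged difference on the log2(FPKM + 1) scale was -0.92 with a standard error of 0.11 (limma adjusted p = 3.26e-06), and -0.81 after rescaling (limma adjusted p = 1.4e-05). Its level was near 1 FPKM and 4 libraries were listed at 0. Usp2 reached 1 FPKM in 6 controls and 0 LPS libraries, so it was tested because of the condition in which it was high. Without a filter on low values it was also called (limma adjusted p = 1.62e-06). Its value depends on the pseudocount and ranged from -2.77 to -0.26 over the alternatives, with the call kept in each that tested it.

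Usp48, a nuclear protease linked to the turnover of the NF-κB subunit RelA, lies on chromosome 4 from 137593755 to 137658537. In TLR4-WT its controls were spread widely, at 12.9, 7.77 and 4.67 FPKM, and its LPS values of 4.33, 4.78 and 5.86 FPKM overlapped them. In TLR4-K730R it went from 13.6, 10.2 and 12.7 FPKM to 3.86, 6.36 and 2.04 FPKM, and in TLR4-K810R from 10.3, 11.8 and 9.41 FPKM to 4.79, 7.31 and 3.88 FPKM. In both mutants the LPS libraries lay below the controls. The averaged difference was -0.97 with a standard error of 0.18 (limma adjusted p = 0.000216), and -0.68 after rescaling (limma adjusted p = 0.00378). By genotype it passed the threshold in TLR4-K730R, at -1.45 (limma adjusted p = 0.00131), and not in TLR4-K810R, at -0.89 (limma adjusted p = 0.0335), or in TLR4-WT, at -0.57 (limma adjusted p = 0.151).

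The sequences before the first exons of Usp2 and Usp48, the genes whose lower values held under both scalings, are given with that of Usp12. Among the tested USP genes Usp12 had the smallest relative spread over the libraries, and it was not called in any comparison. They were taken from the RefSeq promoter windows of GRCm38.p6, read 5′ to 3′ on the strand of the gene, and stop where RefSeq or the first exon in the files begins, whichever comes first. Capitals mark GC boxes, GGGCGG on either strand, where 2 boxes may overlap. Usp2 is chr9:44084670-44084919 on the plus strand, Usp48 is chr4:137593922-137594139 on the plus strand, and Usp12 is chr5:146795007-146795206 on the minus strand. In GENCODE no exon overlaps any of the 3 stretches, but transcripts of Usp2 and Usp48 that start further upstream span their stretches, while that of Usp12 lies before the gene. The annotated gene Gm49380 also overlaps the Usp2 stretch.
Usp2: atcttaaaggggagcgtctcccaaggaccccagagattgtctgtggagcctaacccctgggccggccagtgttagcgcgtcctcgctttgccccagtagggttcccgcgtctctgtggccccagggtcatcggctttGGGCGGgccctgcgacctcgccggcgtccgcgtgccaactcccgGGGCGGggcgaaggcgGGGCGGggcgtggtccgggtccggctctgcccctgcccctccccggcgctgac
Usp48: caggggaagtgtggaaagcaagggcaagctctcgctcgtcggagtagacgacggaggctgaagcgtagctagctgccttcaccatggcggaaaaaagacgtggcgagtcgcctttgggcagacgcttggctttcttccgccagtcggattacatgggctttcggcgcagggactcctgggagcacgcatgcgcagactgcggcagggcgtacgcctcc
Usp12: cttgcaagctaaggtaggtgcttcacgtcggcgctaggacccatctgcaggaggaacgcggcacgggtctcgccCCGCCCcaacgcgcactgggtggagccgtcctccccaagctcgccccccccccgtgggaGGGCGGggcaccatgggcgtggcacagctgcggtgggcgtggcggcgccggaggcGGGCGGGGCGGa
The Usp2 stretch held 3 GC boxes, that of Usp12 held 4 and that of Usp48 none. For Usp25 the RefSeq window, chr16:77013819-77014118, lies inside the first exon listed in the files, from 77013706 to 77014140, and is not shown.

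Windows of 300 bases were found for 28 of the 36 tested genes, in 29 windows. A GC box was in 23 of these windows, or 79.3%, compared with 63.1% of the 9914 windows of tested genes and 35.7% of all 32851 windows. The CCAAT box (CCAAT on either strand) was in 4, or 13.8%, where 37.5% of the windows of tested genes held it. The E-box CACGTG was in 5 windows, or 17.2%, compared with 10.2% for tested genes. The AP-1 form TGANTCA was in 2, those of Usp31 and Usp38, or 6.90%, compared with 5.34% for tested genes. The NF-κB core GGNNNTTCC was in 6 windows, those of Usp8, Usp11, Usp16, Usp28, Usp38 and Usp45, or 20.7%, compared with 22.2% for tested genes. The interferon response core GAAANNGAA was in that of Usp11, or 3.45%, with 7.45% for tested genes, and the cAMP response element TGACGTCA was in 0 of the 29, with 2.88% for tested genes. Both strands were searched for each motif. These letter matches are a description of the windows and say nothing about the binding of a factor.

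Among the USPs known in innate and NF-κB signalling, 8 of 11 were tested, 1 was called higher and 5 lower in the averaged comparison, where 13.9% and 40.9% of all genes were, and 1 in each direction after rescaling (Usp25 higher and Usp2 lower), where 23.1% and 23.6% of all genes were. Their median was -0.45, against -0.30 for all genes. The called genes were Usp25, Usp2, Usp4, Usp20, Usp21 and Usp38. Usp48, which has a link to RelA, was counted with the cell cycle and protein turnover genes and not here. Usp4, on chromosome 9 from 108347853 to 108392545, had control values of 36.2, 38.8 and 31.6 FPKM in TLR4-WT, 35.8, 34.9 and 35.8 FPKM in TLR4-K730R and 34.6, 39.7 and 39.8 FPKM in TLR4-K810R. After LPS these were 31.3, 22.3 and 24.4 FPKM, 25.7, 26.5 and 24.8 FPKM, and 30.0, 28.1 and 25.3 FPKM in the same order of genotypes. All 9 LPS values were lower than all 9 controls, although the highest LPS value and the lowest control nearly touched. The difference was -0.45 (limma adjusted p = 3.87e-05), which is -0.15 relative to the median of all genes, and -0.12 after rescaling (limma adjusted p = 0.154).

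Usp38, which acts on the kinase TBK1, had a narrow range in controls, from 4.79 to 5.53 FPKM, and 3.004 to 4.57 FPKM after LPS, without overlap. Its difference was -0.40 (limma adjusted p = 0.000162) and -0.12 after rescaling. Rows on the opposite strand listed under the same gene ID were left out, and with them the value turned to 0.18. Usp20, known to deubiquitinate TRAF6, was at -0.78 (limma adjusted p = 0.00332), with 0.351 to 3.55 FPKM in controls and 0.136 to 1.73 FPKM after LPS. Usp21, a protease of RIPK1, was at -0.50 (limma adjusted p = 0.00353), with 3.58 to 7.39 FPKM in controls and 1.75 to 5.21 FPKM after LPS. After rescaling neither passed the threshold (limma adjusted p = 0.0176 and 0.146), nor did Usp20 with a pseudocount of 0.1 (limma adjusted p = 0.0148). Usp7 and Usp31 were not called, at -0.20 and -0.44. The summed first-exon value of Usp7 was divided between a pair of exons, its leading one holding 12.7% to 100% of it from library to library.

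Usp5 and Usp14 serve free chains and the proteasome. Usp5 had 41.8, 39.3 and 44.2 FPKM in TLR4-WT controls and 23.8, 22.8 and 37.2 FPKM after LPS. In TLR4-K730R it had 49.1, 43.7 and 35.3 FPKM against 30.3, 34.1 and 22.9 FPKM, and in TLR4-K810R 47.0, 40.9 and 44.2 FPKM against 26.0, 37.1 and 35.1 FPKM. Within each genotype the LPS libraries were lower than the controls, but across genotypes the ranges overlapped. The averaged difference was -0.52 (limma adjusted p = 0.000639), or -0.22 relative to all genes, and -0.19 after rescaling (limma adjusted p = 0.109). Usp14 was at -0.37 (0.142) and varied widely, from 3.66 to 17.6 FPKM.

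Of the USPs at the endosome, the endoplasmic reticulum and mitochondria, all 4 were tested and 3 were called lower, where 40.9% of all genes were, with a median of -0.38 against -0.30 for all genes. Usp8 was at 21.3 to 26.2 FPKM in the 9 controls and 14.4 to 19.8 FPKM in the 9 LPS libraries, which did not overlap, with a difference of -0.44 (limma adjusted p = 5.86e-05). Usp33, which acts on receptor recycling and at the centrosome, was at 5.45 to 7.26 FPKM in controls and 2.23 to 4.80 FPKM after LPS, also without overlap, with -0.54 (limma adjusted p = 6.09e-05). Usp19 differed by -0.31 (limma adjusted p = 0.00253), which is -0.01 from the median of all genes, and turned to 0.01 after rescaling. Usp30, which opposes Parkin on the outer mitochondrial membrane, was at -0.32 and not called (0.184). After rescaling none of the 4 was called, where 23.1% of all genes were called higher and 23.6% lower.

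The partners of UAF1, the WD repeat protein encoded by Wdr48, are Usp1, Usp12 and Usp46. Usp1, which deubiquitinates FANCD2 and PCNA, was at 4.28 to 5.56 FPKM in controls and 3.17 to 4.78 FPKM after LPS, a difference of -0.32 (limma adjusted p = 0.00292). Usp46 was at 1.55 to 3.83 FPKM and 0.803 to 2.23 FPKM, a difference of -0.44 (limma adjusted p = 0.00159). Usp12 had 11.4, 12.7 and 10.4 FPKM in TLR4-WT controls and 11.5, 11.8 and 9.42 FPKM after LPS, which overlap, as its values did in TLR4-K730R. In TLR4-K810R its LPS libraries, at 10.2, 10.4 and 8.51 FPKM, all lay below its controls, at 11.7, 13.0 and 11.6 FPKM. That difference was -0.30 and was not called (limma adjusted p = 0.0644). Averaged over genotypes, Usp12 differed by -0.17 with a 95% interval from -0.32 to -0.02 (limma adjusted p = 0.0437). It had the smallest relative spread of the tested genes, with a standard deviation of 10.9% of its mean over the 18 libraries. In the averaged comparison 2 of the 3 were thus called lower, where 40.9% of all genes were. After rescaling Usp1 and Usp46 were at -0.05 and -0.23 and Usp12 turned to 0.14 (limma adjusted p = 0.14). None of the 3 was then called, where 23.1% of all genes were called higher and 23.6% lower.

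For chromatin, 3 of 8 genes were tested. Usp22 was at 11.644 to 13.8 FPKM in controls and 8.05 to 11.555 FPKM after LPS, narrowly without overlap, a difference of -0.33 (limma adjusted p = 0.000433) that was -0.03 relative to the median of all genes and -0.02 after rescaling. Usp16, which removes ubiquitin from a core histone, and Usp36, a nucleolar protease, were at -0.27 and -0.15 and were not called. Of the genes for the cell cycle, DNA damage and protein turnover, 7 of 8 were tested and Usp48 alone was called, lower, where 40.9% of all genes were. Usp34, Usp47 and Usp24 just missed the threshold, at -0.71, -0.41 and -0.35 (limma adjusted p = 0.0136, 0.0129 and 0.0132), and Usp11, Usp28 and Usp37 were at -0.31, -0.13 and -0.06.

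A pair of genes carries the name without the protease activity. Usp6nl, a GTPase-activating protein for Rab GTPases, was at -0.93 (limma adjusted p = 0.00944), with values of 0.492 to 4.96 FPKM in controls and 0 to 2.74 FPKM after LPS, and kept its call in 4 of 18 fits with 1 library removed. It lost the call under 7 of 11 other alternatives, among them a pseudocount of 0.1 (limma adjusted p = 0.0323) and no filter on low values (limma adjusted p = 0.0175). Usp39 lacks the catalytic residues and was at -0.04 with a 95% interval from -0.23 to 0.15 (limma adjusted p = 0.702), turned to 0.27 after rescaling (limma adjusted p = 0.0115), with 10.3 to 12.8 FPKM in controls and 8.50 to 13.9 FPKM after LPS. The other tested genes had no list. Usp53, a tight junction-associated member, was called higher at 0.42 (limma adjusted p = 0.00836) and 0.58 after rescaling, but at a low level of 0.198 to 1.38 FPKM in controls and 0.880 to 1.52 FPKM after LPS, and it kept its call in 5 of 18 fits with 1 library removed and lost it with a pseudocount of 0.1 (0.88, limma adjusted p = 0.0112). It reached 1 FPKM in 7 LPS libraries and 1 control, so it was tested because of the condition in which it was high, and without a filter it was called as well (limma adjusted p = 0.00883). Usp35 and Usp45 were called lower at -0.48 and -0.52 (limma adjusted p = 0.00675 and 0.00354), Usp35 in 10 of 18 such fits. Neither was called after rescaling, nor was Usp45 with a pseudocount of 0.1 (limma adjusted p = 0.0103). Usp32, Usp40, Usp42 and Usp54 were not called, at -0.08, -0.17, 0.30 and -0.40.

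By genotype, with 3 libraries against 3, fewer USP genes passed the threshold. In TLR4-WT 1 USP gene was higher and 4 were lower, or 2.78% and 11.1%, where 10.4% and 23.9% of all genes were. The lower ones were Usp2 (-0.78), Usp4 (-0.45), Usp21 (-0.87) and Usp38 (-0.50). In TLR4-K730R 1 was higher and 6 were lower (16.7%), where 9.32% and 26.5% of all genes were, the lower ones being Usp2 (-1.31), Usp4 (-0.45), Usp8 (-0.46), Usp33 (-0.68), Usp47 (-0.97) and Usp48 (-1.45). In TLR4-K810R 1 was higher and 2 were lower (5.56%), where 9.08% and 19.7% of all genes were, and the lower ones were Usp4 (-0.44) and Usp8 (-0.54). The higher gene was Usp25 each time. After rescaling, Usp2 and Usp48 in TLR4-K730R were the lower genes that kept their calls.

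Single libraries decided part of these counts. In TLR4-WT the number called went from 5 to 1 without control replicate 2 or without LPS replicate 2, and to 6 without LPS replicate 3. In TLR4-K730R it went from 7 to 5 or 6, and in TLR4-K810R from 3 to 1 without LPS replicate 3 and to 4 without control replicate 3. The 2 LPS libraries with Scgb1a1 are replicates 2 and 3, and without replicate 2 the number was 2. Usp4 kept its call in 2 of 6 such fits in TLR4-WT, in 0 of 6 in TLR4-K730R and in 1 of 6 in TLR4-K810R. In TLR4-WT, Usp2, Usp21 and Usp38 kept theirs in 1, 2 and 3 of 6. In TLR4-K730R, Usp2, Usp33 and Usp48 did so in 6 of 6, Usp47 in 5 and Usp8 in 1, and in TLR4-K810R Usp8 did in 3.

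The second question was whether the exchange of a TLR4 lysine alters the family. No USP gene was called with limma in any comparison of a mutant with TLR4-WT. In controls 0.268% of all genes were called for TLR4-K730R and 1.58% for TLR4-K810R. After LPS 0% of all genes were called for TLR4-K730R and 0.134% for TLR4-K810R. Without adjustment, 2 and 3 of the 36 had p below 0.05 in controls, or 5.56% and 8.33%, compared with 7.70% and 14.1% of all genes. After LPS these were 1 and 5, or 2.78% and 13.9%, compared with 7.69% and 21.8% of all genes.

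**Figure D4:**
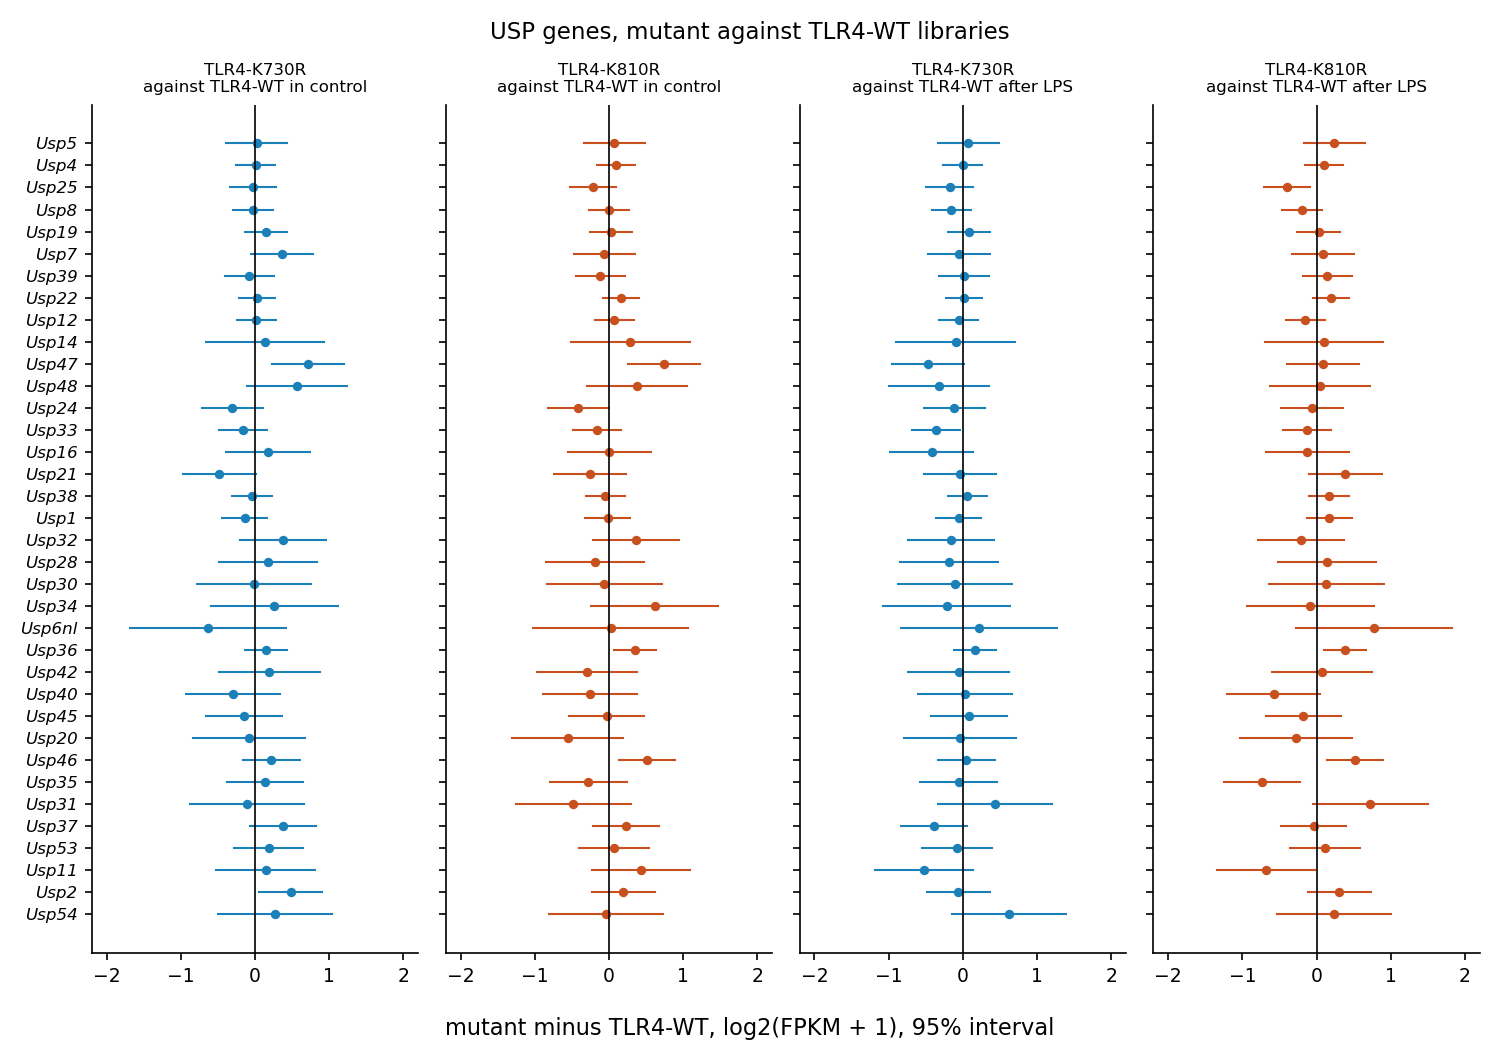
Each row is one USP gene, ordered by mean level, and each panel one comparison of a mutant with TLR4-WT (3 libraries against 3), in control or LPS libraries, with the difference on the log2(FPKM + 1) scale and its 95% interval from limma. No gene had an adjusted p below 0.01, and Usp47 lies to the right in both control panels, at 0.71 and 0.75, and Usp35 is lowest in the TLR4-K810R panel after LPS, at -0.74.

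Usp47, which supplies the base excision repair polymerase by deubiquitination, came nearest in controls. Its control values were 4.71, 7.09 and 9.66 FPKM in TLR4-WT, 12.3, 11.3 and 12.2 FPKM in TLR4-K730R and 11.2, 13.0 and 12.7 FPKM in TLR4-K810R. All 6 mutant controls were above the 3 TLR4-WT controls, as they were for the summed intestinal epithelium markers, whose part in the difference was not tested. The differences were 0.71 for TLR4-K730R (limma adjusted p = 0.369) and 0.75 for TLR4-K810R (limma adjusted p = 0.0976). After LPS the values were 7.35, 6.04 and 11.8 FPKM in TLR4-WT, 5.22, 5.57 and 6.05 FPKM in TLR4-K730R and 9.73, 10.1 and 6.51 FPKM in TLR4-K810R. The LPS response of TLR4-K730R minus that of TLR4-WT was -1.17, with a 95% interval from -1.86 to -0.49 (limma adjusted p = 0.424).

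Usp46 was higher in value in TLR4-K810R in both conditions. Its controls had 1.55, 1.56 and 1.55 FPKM in TLR4-WT and 2.45, 1.90 and 3.83 FPKM in TLR4-K810R. After LPS it had 0.826, 0.803 and 1.29 FPKM in TLR4-WT against 1.79, 2.23 and 1.45 FPKM in TLR4-K810R. The TLR4-K730R controls, at 2.21, 1.66 and 2.07 FPKM, also lay above those of TLR4-WT, whereas the LPS values of these genotypes overlapped. The TLR4-K810R and TLR4-WT groups did not overlap, but their differences of 0.51 and 0.52 did not pass (limma adjusted p = 0.169 and 0.119). The share of all genes whose groups separate in this way was not counted, here or for Usp47 above and Usp25 below. The highest value, 3.83 FPKM, was from control replicate 3, the library with the highest fibroblast and intestinal marker sums. Usp36 was at 0.35 in controls and 0.38 after LPS in the same comparison (limma adjusted p = 0.212 and 0.124).

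After LPS, Usp35 had the smallest adjusted p in TLR4-K810R, with 1.65, 1.76 and 0.906 FPKM in TLR4-WT and 0.127, 0.551 and 0.709 FPKM in TLR4-K810R, a difference of -0.74 (limma adjusted p = 0.102). Usp25 had 50.7, 51.0 and 37.8 FPKM in TLR4-WT and 34.1 to 35.1 FPKM in TLR4-K810R after LPS, which did not overlap, with a difference of -0.40 (limma adjusted p = 0.14) and a 95% interval from -0.71 to -0.09. In controls this difference was -0.21. In TLR4-K730R the smallest adjusted p after LPS was that of Usp33, at -0.36 (limma adjusted p = 0.634). A p that missed the threshold does not show equal levels, and the intervals give the sizes that these libraries allow.

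The difference between the LPS responses of a mutant and of TLR4-WT was tested as an interaction. No USP gene was called with limma, where 0.0412% of all genes were for TLR4-K730R and 0.124% for TLR4-K810R, and 2 USP genes had an unadjusted p below 0.05 in each, or 5.56%, compared with 7.02% and 13.2% of all genes. For Usp25 the response was -0.15 from that of TLR4-WT in TLR4-K730R, with a 95% interval from -0.59 to 0.29, and -0.18 in TLR4-K810R, with an interval from -0.63 to 0.26. Usp11 had the smallest adjusted p for TLR4-K810R (-1.11, limma adjusted p = 0.295), a gene below 3 FPKM in every library. Usp48, called in TLR4-K730R and not in TLR4-WT, differed between these responses by -0.88 with an interval from -1.83 to 0.07 (limma adjusted p = 0.74), so that the responses were not shown to differ.

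The other genes of the pathway were taken by list. Of 9 USP cofactors 8 were tested, and 3 were called higher and 2 lower in the averaged comparison, where 13.9% and 40.9% of all genes were, and 5 higher and 0 lower with limma after rescaling, where 23.1% and 23.6% of all genes were. Tank and Zc3h12a, which bind Usp10 in a complex that removes chains from TRAF6, rose by 1.53 and 2.31 (limma adjusted p = 1.61e-08 and 6.29e-12), while Usp10 itself had no row. Wdr48, which encodes UAF1, and Wdr20, a further WD repeat cofactor of Usp12 and Usp46, were at -0.38 and -0.36 (limma adjusted p = 0.00372 and 0.000603), and at -0.07 and -0.05 after rescaling, where neither was called. Of the ubiquitin genes 3 of 4 were tested, and 1 was called higher and 1 lower, where 13.9% and 40.9% of all genes were. Ubb was higher by 0.70 (limma adjusted p = 0.00297) and Rps27a lower at -0.78 (limma adjusted p = 0.00567). After rescaling, when 23.1% and 23.6% of all genes were called, Ubb was higher at 1.04 (limma adjusted p = 7.72e-05) and Rps27a was not called.

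Of 32 deubiquitinases of other families 29 were tested, with 5 called higher and 7 lower, where 13.9% and 40.9% of all genes were, and with 8 and 4 after rescaling, where 23.1% and 23.6% of all genes were. Their median difference was -0.30, equal to that of all genes. Tnfaip3, the NF-κB target that encodes A20, rose by 2.34 (limma adjusted p = 6.28e-15), from 19.6 to 31.5 FPKM in controls to 101 to 160 FPKM after LPS. Otulin, the protease of linear chains, was lower at -0.78 (limma adjusted p = 6.12e-08) and Mindy2 at -1.23 (limma adjusted p = 1.51e-08), and both kept their calls after rescaling.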

How the data were processed

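RNA-seq of 18 libraries in 6 groups was analysed, grouped by genotype and treatment labels. The authors deposited FPKM values per library for transcript events of 20 types with an Ensembl gene ID. The aligner and counting tool are not given in the sources used here. The labels name a human build, but coordinates fit mouse GRCm38, and 14126 of 14138 IDs were matched to GENCODE.

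The larger of the summed first-exon and last-exon FPKM was taken per gene and library, from rows on the gene's strand and within its span (5.98% of the FPKM was dropped). This used pandas 2.3.3 under Python 3.11.15. Genes at 1 FPKM or above in 3 or more libraries (9707) entered a limma fit (version 3.58.1, R 4.3.3) on log2(FPKM + 1) with a variance trend and Benjamini-Hochberg adjustment, in 10 comparisons. The script was tested on simulated data. Members, role lists, cofactor lists and marker lists were chosen with earlier results of these data known. USP genes were named if called, among the 10 highest in mean FPKM, or as examples of a role list; Usp12, Usp35, Usp36 and Usp46 were followed across genotypes, and genes of the cofactor, ubiquitin and other deubiquitinase lists were named, after their values were seen. Alternatives covered pseudocount, filter, scaling, trend, library weights, replicate block, samples in the fit, exon end, gene ID rows, threshold and left-out libraries; 2 on exon ends were added after seeing the data.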

Additional observations from a re-analysis of the deposited data

How the results depend on the processing

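The depth is unknown, so counting error could not be given, and genes near 1 FPKM are the least certain. Usp25 was called higher under every alternative in each genotype. Of the USP genes called in TLR4-WT (5), TLR4-K730R (7), TLR4-K810R (3) and averaged over genotypes (18), median-of-ratios scaling left 1, 3, 1 and 4. With both ends within 1.1 times of each other the counts were 2, 4, 2 and 6, with a mean of at least 5 FPKM 2 in TLR4-WT and 8 averaged, with last exons only 3 in TLR4-WT and 9 averaged, settings that test fewer USP genes or other values. A threshold of 0.05 gave 14, 13 and 9 in the 3 genotypes. The counts in this section are given without the shares of all genes under the same alternatives. They therefore do not compare the family with all genes. In TLR4-WT library weights gave 8 and a fit of only the groups compared gave 1, where the cause was not tested. Leaving out a library gave 1 to 6, 5 to 6, 1 to 4 and 15 to 19. The values of Usp38 turned to 0.0367 in TLR4-WT and 0.185 averaged when all rows of the gene ID were used, rows on the other strand included. A pseudocount of 0.1 ended the averaged calls of Usp6nl, Usp20, Usp45 and Usp53. Usp19 turned to 0.0115 with median-of-ratios scaling and to 0.0773 with last exons only. In the comparisons between genotypes and of LPS responses the count was 0 under each alternative, left-out libraries included. Replicate numbers did not pair the libraries: deviations of same-numbered libraries correlated at -0.32 to 0.10, above 0.1 in 0 of 45 pairs. Those of differently numbered libraries of different groups correlated at -0.12 to 0.27, above 0.1 in 8 of 90 pairs, and the cause was not tested. With a replicate block 4, 6, 2 and 16 USP genes were called, and 5 single calls were lost, among them Usp53 and Usp6nl averaged over genotypes.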
